A study of Mus musculus with 3 samples.

Results

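Among the sites bound by thyroid hormone receptor α1 (TRα1) in the adult mouse striatum, 1671 lay away from promoters, held the recognition element of the AP-1 transcription factors next to their summit, and held no recognisable DR4, the classical element for thyroid hormone receptors. They were 6.97% of the 23988 sites in the deposited list and 8.75% of the 19094 distal sites. A site was taken as distal when its summit was more than 1 kb from the 5′ end of the nearest protein-coding gene. The AP-1 consensus is the 7-base word TGACTCA, which reads TGAGTCA on the other strand, and it had to be present without mismatch within 100 bp of the summit. A DR4 was called where 2 copies of AGGTCA in the same orientation, separated by 4 bases, were found on either strand with at most 2 mismatches in their 12 half-site bases. The rule thus used position and sequence only, and no ChIP value. For comparison, 14581 distal sites held neither element, 2613 held DR4 without AP-1, 229 held both, and 4894 sites were promoter sites.

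The list came from chromatin immunoprecipitation (ChIP-seq) on the striatum of male C57BL/6J mice aged 8 weeks, which were euthyroid and received no hormone or other treatment. A tagged TRα1 (GS-TRα1) was precipitated from GABAergic neurons, the inhibitory neurons that make up most of the striatum, after crosslinking with disuccinimidyl glutarate and then formaldehyde. There were 2 ChIP libraries and 1 input library, but a single peak list with no value for a single library, so depth per library is unknown and no spread between animals could be given. The driver of the tag's expression is not given in the sources used here, and no expression data were used, so the neuronal identity could not be checked against marker genes. Every interval given is a 95% interval that reflects how many sites were counted and nothing else, and neighbouring sites are not independent of each other.

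AP-1 is a dimer of a FOS and a JUN family protein, or of related basic leucine zipper (bZIP) proteins such as ATF and JDP2, that binds this palindrome-like 7-base element. In neurons several FOS and JUN genes are switched on within minutes by synaptic activity, and AP-1 elements are common in distal enhancers of many tissues. Thyroid hormone receptors bind DR4 mostly as heterodimers with RXR, and liganded nuclear receptors have long been known to affect transcription at AP-1 elements without a receptor element of their own.

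The sites with the highest fold enrichment show what these regions look like. The lines below give the 7-base consensus in capitals with 20 bases on either side, on GRCm38 and read from the RefSeq copy of that assembly, for 6 sites among the 7 most enriched, each named by its nearest protein-coding gene.
Krt20 site, chr11:99465085-99465131, plus strand: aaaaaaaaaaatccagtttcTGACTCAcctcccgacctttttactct
Ccdc90b site, chr7:92197831-92197877, plus strand: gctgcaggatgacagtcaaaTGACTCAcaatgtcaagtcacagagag
Bcr site, chr10:75135642-75135688, plus strand: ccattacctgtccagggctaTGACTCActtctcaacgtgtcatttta
Klhl2 site, chr8:64806661-64806707, plus strand: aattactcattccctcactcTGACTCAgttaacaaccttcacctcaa
Dgkd site, chr1:87848782-87848828, plus strand: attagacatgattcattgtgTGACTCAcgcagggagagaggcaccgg
Tet2 site, chr3:133601028-133601074, plus strand: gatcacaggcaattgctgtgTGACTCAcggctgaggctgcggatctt

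The next lines give the same for the sites within 30 kb of the 5′ end of AP-1 subunit, activity-regulated and striatal projection neuron genes, because their values are described one by one further on.
Fosb site, chr7:19321652-19321698, plus strand: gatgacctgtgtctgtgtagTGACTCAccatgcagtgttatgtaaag
Jdp2 site, chr12:85594572-85594618, plus strand: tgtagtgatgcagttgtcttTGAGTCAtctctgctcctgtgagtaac
Bdnf site, chr2:109681306-109681352, plus strand: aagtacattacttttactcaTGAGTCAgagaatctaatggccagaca
Dusp1 site, chr17:26549604-26549650, plus strand: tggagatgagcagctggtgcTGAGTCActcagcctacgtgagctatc
Per1 site, chr11:69100377-69100423, plus strand: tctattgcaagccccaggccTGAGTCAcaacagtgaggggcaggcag
Scg2 site, chr1:79450484-79450530, plus strand: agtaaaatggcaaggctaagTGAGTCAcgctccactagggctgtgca
Vgf site, chr5:137052341-137052387, plus strand: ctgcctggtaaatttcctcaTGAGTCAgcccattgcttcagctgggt
Bcl11b site, chr12:108010859-108010905, plus strand: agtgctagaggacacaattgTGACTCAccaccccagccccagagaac
Arpp21 site, chr9:112214179-112214225, plus strand: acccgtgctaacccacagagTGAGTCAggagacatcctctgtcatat
Gng7 site, chr10:80985741-80985787, plus strand: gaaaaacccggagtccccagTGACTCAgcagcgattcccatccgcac

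A small number of sites carried several copies of the element. The 4 windows of 201 bp shown here hold 3 or 5 copies, all in capitals, and differ in how the copies are spaced.
Pou3f3 site, chr1:42591871-42592071, plus strand: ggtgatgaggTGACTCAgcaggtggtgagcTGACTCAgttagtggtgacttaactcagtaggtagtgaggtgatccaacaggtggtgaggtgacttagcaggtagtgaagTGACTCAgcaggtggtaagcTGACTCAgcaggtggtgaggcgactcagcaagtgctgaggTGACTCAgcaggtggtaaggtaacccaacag
Cetn3 site, chr13:81852680-81852880, plus strand: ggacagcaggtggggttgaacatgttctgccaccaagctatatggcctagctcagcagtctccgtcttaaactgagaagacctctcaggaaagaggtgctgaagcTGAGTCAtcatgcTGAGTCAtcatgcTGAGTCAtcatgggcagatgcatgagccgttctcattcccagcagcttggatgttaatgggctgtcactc
Ttc8 site, chr12:99063998-99064198, plus strand: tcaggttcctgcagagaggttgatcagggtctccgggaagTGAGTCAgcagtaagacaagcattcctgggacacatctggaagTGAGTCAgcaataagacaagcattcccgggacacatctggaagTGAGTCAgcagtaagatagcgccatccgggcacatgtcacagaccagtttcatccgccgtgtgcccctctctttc
Sntg1 site, chr1:8686041-8686241, plus strand: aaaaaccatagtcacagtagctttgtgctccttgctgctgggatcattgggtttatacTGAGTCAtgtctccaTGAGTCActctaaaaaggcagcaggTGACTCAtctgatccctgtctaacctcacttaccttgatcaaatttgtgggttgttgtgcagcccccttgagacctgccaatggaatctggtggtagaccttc

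The AP-1 element was concentrated at distal TRα1 summits. Of the 16252 distal sites without DR4, 10.3% held it (interval 9.82 to 10.8), against 3.43% (3.16 to 3.72) of windows of the same width 5 kb to the right of the same summits and 3.56% of windows 5 kb to the left. Over all distal sites, DR4 or not, the share was 9.95%. The difference from the right-hand windows was 6.85 percentage points (6.31 to 7.40). This interval treats sites and windows as independent samples and does not use their pairing. In pairs of a site and its own window, 1610 had the element at the site alone and 496 in the window alone. Promoter sites were the opposite case: 102 of 4583 without DR4 held the element, or 2.23% (1.84 to 2.69), against 3.95% of their windows. The distal share exceeded the promoter share by 8.06 points (7.40 to 8.67).

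The change from promoter to distal sequence was gradual. The share was 6.70% (5.64 to 7.94) at 1 to 5 kb from a gene start, 9.55% (8.09 to 11.2) at 5 to 10 kb and 11.0% (9.97 to 12.1) at 10 to 30 kb. Farther out it stayed level, with 10.9% at 30 to 100 kb and 10.7% beyond 100 kb. It also differed with ChIP strength. When distal sites without DR4 were ordered by fold enrichment and cut into 5 equal groups, the element was present in 7.60% (6.74 to 8.56) of the weakest group and 12.6% (11.5 to 13.8) of the strongest, with 8.62%, 12% and 10.6% in the groups between. In the matching windows the share was between 2.77% and 4.06% in every group. Chromosomes differed little: leaving out Y, which had 9 such sites and no copy, the share was between 8.93% on X and 11.7% on 15.

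**Figure D1:**
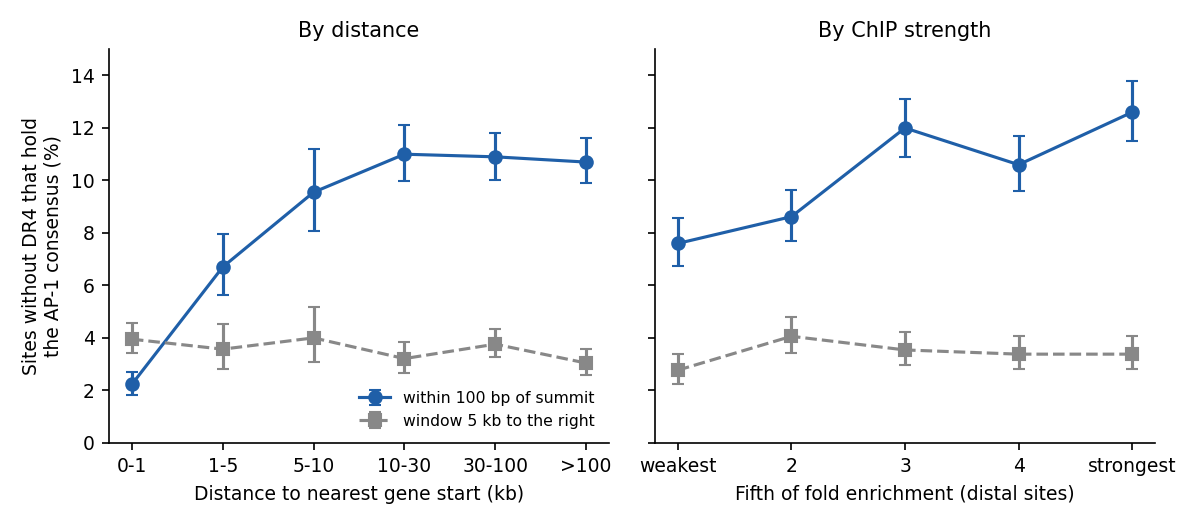
The y axis gives the percentage of sites without DR4 that hold the AP-1 consensus, by distance to the nearest gene start in kb (left) and by group of fold enrichment from weakest to strongest (right). Blue points are windows of 100 bp either side of the summit, grey squares the windows 5 kb to the right, and bars are 95% Wilson intervals; blue lies below grey at promoters (2.23% against 3.95%) and above it in all distal groups.

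How specific the sequence was could be seen by counting all 7-base words in the same windows. TGACTCA occurred 1801 times at distal summits without DR4 and 579.5 times on average in the windows to both sides, a ratio of 3.11. Among all 8192 words, with both strands pooled, it ranked 208, and among the 5432 words without the dinucleotide CG it ranked 1. The median ratio of words without CG was 0.928. The words next in that order were GAGTCAC with 2.50, which overlaps the AP-1 element, GAGGTGA with 2.48 and CTCCCAC with 2.45. Of the 19 words that differ from the consensus by 1 base, the median ratio was 1.22 and the range 0.701 to 2.34, so each was less concentrated at the summits than the exact element. This ranking, and its restriction to words without CG, were chosen after values of these data had been seen.

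Out of 433145 copies of the element in the genome, 1801, or 0.416%, lay within 100 bp of these summits. Copies in repeat-masked sequence were rare among them. The nearest copy was masked in 73 of the 1671 sites (4.37%, 3.49 to 5.46), against 17.9% of copies in the whole genome. The summit itself was in masked sequence in 9.34% of the AP-1 sites, 11.4% of sites with neither element and 12.4% of sites with DR4 alone. The GC content of the 201 bp was close in the 3 classes, with medians of 48.3%, 48.8% and 47.8%, and at promoter sites it was 66.2%.

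The AP-1 element was less concentrated under the summit than DR4. The nearest copy was a median of 45 bp from the summit (quartiles 21 and 68), with 805 copies to the left, 853 to the right and 13 centred on it. Among the 1555 sites with 1 copy, 27.3% (25.1 to 29.5) had it within 25 bp, and an even spread over the window would give 26.2%. This was an excess of 1.11 points (−1.04 to 3.38). A search window of 200 bp selected a different set of 2449 sites. Their excess within 25 bp was 4.16 points (2.63 to 5.80), measured against an even spread over that wider window. In the window of 100 bp, the share within 50 bp was 54.5% (52.0 to 56.9) against 51.8% for an even spread. In contrast, the nearest DR4 of sites with DR4 alone was a median of 27.5 bp from the summit, and 44.8% (42.9 to 46.8) of those with 1 DR4 had it within 25 bp, where even spread would give 26.9%. The difference between both elements was −17.55 points (−20.48 to −14.55).

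The concentration of AP-1 copies extended beyond the window of the rule. Around distal summits without DR4 there were 0.564 copies per kb up to 100 bp away, 0.369 at 101 to 150 bp, 0.282 at 151 to 200 bp, 0.213 at 201 to 300 bp and 0.181 at 301 to 490 bp. DR4 matches around all distal summits fell faster, from 0.912 per kb up to 100 bp to 0.286 at 101 to 150 bp and 0.133 at 301 to 490 bp. Around promoter summits the AP-1 element stayed between 0.0879 and 0.127 copies per kb over the same distances.

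**Figure D2:**
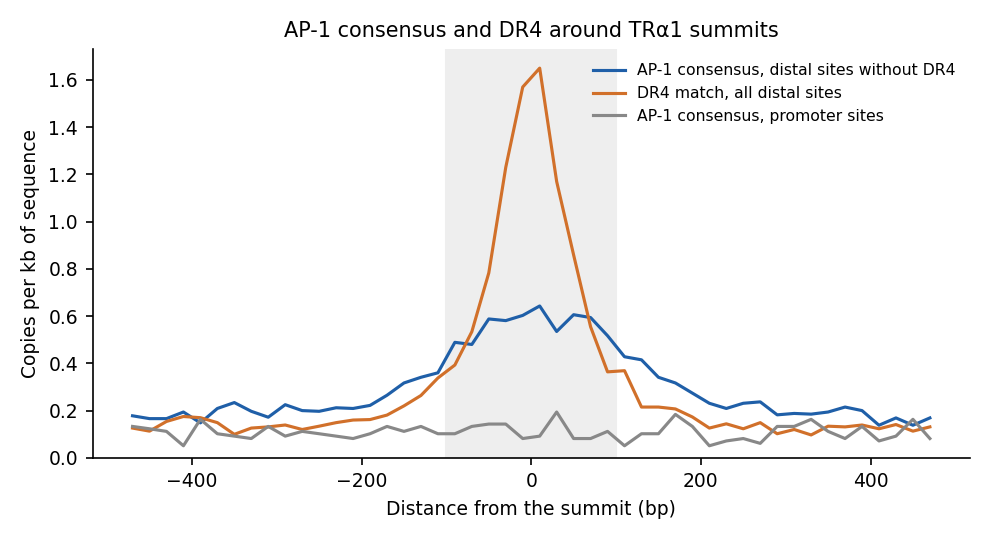
Copies per kb of sequence (y axis) in bins of 20 bp against the distance from the summit in bp (x axis), for the AP-1 consensus around distal sites without DR4 (blue) and promoter sites (grey) and for DR4 around all distal sites (orange). The grey band is the window of the rule: blue forms a broad plateau over it, with a mean of 0.564 up to 100 bp, where orange forms a narrow peak.

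Bases next to the consensus also differed from those of other copies. A purine directly before and a pyrimidine directly after the element, the symmetric extension of the palindrome, was found at 32.9% (30.7 to 35.2) of the nearest copies, against 22.3% (19.1 to 25.9) of copies in the right-hand windows and 22.0% of all copies in the genome. The difference from the windows was 10.59 points (6.37 to 14.55). The reverse pair, a pyrimidine before and a purine after, was found at 13.9% against 27.9% and 27.1%. On the strand that reads TGACTCA, G came directly before the element in 36.0% of sites and 24.8% of windows, and A directly after it in 11.7% and 23.0%. The bases TGC directly before the element on either strand, as in the antioxidant element of NRF2 and small MAF proteins, were found at 6.46% (5.38 to 7.74) and 7.21% (5.36 to 9.63), with overlapping intervals. The flanks were compared after values of these data had been seen.

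A single copy was the rule. It was found at 93.1% of the sites, while 104 sites held 2 copies, 11 held 3 and 1 held 5. At least 2 copies were present at 116 sites, 6.94% (5.82 to 8.26), against 12 of the 557 right-hand windows with a copy, 2.15% (1.24 to 3.73). The start-to-start distance of adjacent copies ranged from 9 to 168 bp over 130 pairs, with a median of 48 bp. The site nearest Pou3f3, which encodes a POU-domain factor of neurons, held 5 copies at steps of 20, 80, 20 and 40 bp. The Cetn3 site had equal steps of 13 bp and the Ttc8 site equal steps of 43 bp. At these sites and at the Pou3f3 site the bases between copies also recurred, with changes, so the copies lay in tandem repeats. At the other sites with 3 copies the steps were unequal, such as 15 and 25 bp at Sntg1 (syntrophin γ1), 18 and 16 bp at Araf (a RAF kinase), 17 and 25 bp at Sun1, 90 and 11 bp at Ccnf, 20 and 110 bp at Mageb4 and 24 and 118 bp at Sall3. Some lay in introns of genes other than the nearest, namely the Gm13090 site in Camta1 (43 and 18 bp), the Gm20075 site in Sv2c, which encodes a synaptic vesicle protein (45 and 62 bp), and the Prph2 site in Ubr2 (86 and 26 bp). The Prph2 site had a fold enrichment of 31.8, and the other sites with at least 3 copies had values from 5.05 (Sall3) to 8.41 (Ttc8), most of them below the lower quartile of all AP-1 sites, 6.12.

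Fold enrichment is the ratio of the fragments piled up at the summit to the local background, each with 1 added, as the peak caller gives it. Its median was 7.58 (7.44 to 7.81) at the AP-1 sites, with quartiles of 6.12 and 11.9 and a range of 4.52 to 76.2. It was 7.07 (7.06 to 7.07) at distal sites with neither element, 8.15 (7.81 to 8.18) at sites with DR4 alone and 8.14 (7.44 to 8.93) at sites with both. Of the AP-1 sites 939, or 56.2% (53.8 to 58.6), exceeded the median of the sites with neither element, against 50.9% of all distal sites. For sites with DR4 alone it was 60.8%, and the difference of AP-1 from DR4 sites was −4.58 points (−7.60 to −1.56). The AP-1 sites therefore lay between both classes, and the shift against sites with neither element was small beside the spread within each class.

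Pileup, q value and width gave the same order of the classes. The pileup, the number of overlapping fragments at the summit, had medians of 21, 20 and 23 at sites with AP-1, neither element and DR4 alone. The median −log10 q was 12.7, 11.5 and 14.6, and the median width 409, 397 and 431 bp. A score of at least 200 was reached by 33.6% of AP-1 sites, 28.1% of sites with neither element and 36.7% of sites with DR4 alone. The background estimate was at its lowest value, 1.69 fragments, at 50.1%, 47.6% and 50.1% of the sites.

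**Figure D3:**
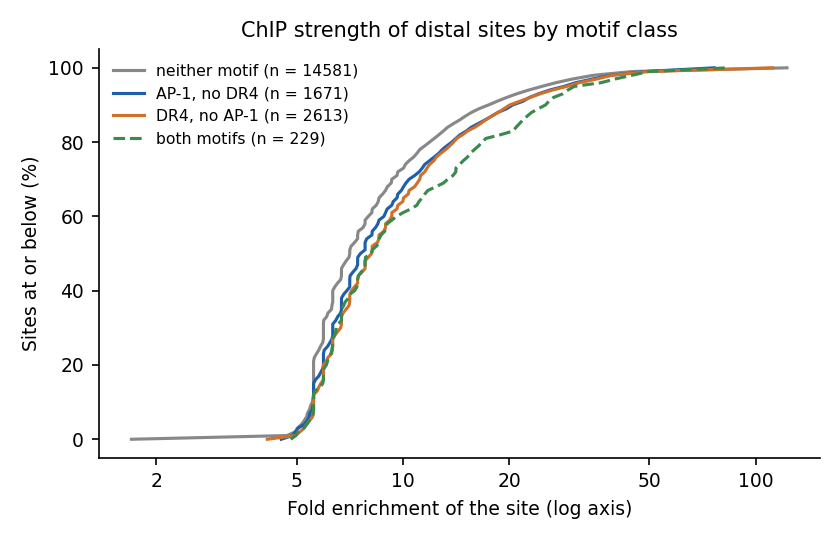
Cumulative percentage of distal sites (y axis) at or below each fold enrichment (x axis, log scale) for the 4 motif classes. The blue curve of the AP-1 sites (median 7.58) runs to the right of the grey curve of sites with neither element (7.07) and left of or along that of DR4 sites (8.15).

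Among the AP-1 sites themselves, groups by the arrangement of the element and by gene region had overlapping intervals of the median. The median fold enrichment was 7.47 (7.44 to 7.81) with 1 copy and 7.81 (7.40 to 8.93) with more, and the intervals overlapped. With the nearest copy within 10 bp of the summit it was 7.44, at 11 to 25 bp 8.16, and 7.47 both at 26 to 50 bp and at 51 to 100 bp. Sites with the purine and pyrimidine flanks had 7.44 and the others 7.80. Sites in introns had 7.81, in intergenic sequence 7.44 and in exons 7.44. The 73 sites with a masked copy had 6.69 (6.32 to 7.44) and the others 7.81 (7.44 to 7.81).

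Larger differences were seen when the AP-1 sites were divided by their best match to DR4. In 527 of the AP-1 sites the best DR4 match had 3 mismatches, just outside the limit, and their median fold enrichment was 8.93 (8.51 to 9.67). It was 7.44 (7.13 to 7.71) at 873 sites with 4 mismatches and 7.03 (6.69 to 7.44) at 271 sites with 5 or more. Just inside the limit, the 183 distal sites with AP-1 and a DR4 with 2 mismatches had 8.39 (7.44 to 9.30), and 38 with 1 mismatch had 7.81 (6.57 to 10.4). Both intervals overlap that with 3 mismatches, and neither median was higher. Distal sites without AP-1 had 7.81 (7.71 to 7.98), 7.03 (6.90 to 7.07) and 6.32 (6.32 to 6.32) with 3, 4 and 5 or more mismatches, so from 3 mismatches on the order was the same and each value was lower than its counterpart with AP-1. At the distance limit, 27 sites with AP-1 and without DR4 between 501 and 1000 bp from a gene start had a median of 8.16 (6.47 to 14.6), and 31 sites at 1001 to 2000 bp had 7.07 (6.69 to 8.93).

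Such near matches had the same share at AP-1 sites and at sites with neither element. A best match with exactly 3 mismatches was found at 31.5% (29.4 to 33.8) of AP-1 sites and 31.5% (30.8 to 32.3) of sites with neither element, a difference of 0.00 points (−2.31 to 2.39). In the right-hand windows without a closer match it was 16.2% and 14.2%. With matches that touch the AP-1 element left out, the share at AP-1 sites was 28.7% (26.6 to 30.9). The difference from sites with neither element was then −2.81 points (−5.06 to −0.47). Nothing was left out at sites with neither element, so this step could only lower the share at AP-1 sites. The second difference therefore cannot show whether near matches were less frequent there. DR4 itself within the limit was less frequent at distal sites with AP-1 (229 of 1900, 12.1%) than without it (15.2%), with a difference of −3.14 points (−4.64 to −1.52). Both elements shared bases, in a half-site, at 26 of the 229 sites that held both. The comparisons by number of mismatches were chosen after values of these data had been seen.

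Single receptor half-sites had a share close to that elsewhere. An exact AGGTCA was present at 211 of the AP-1 sites, 12.6% (11.1 to 14.3), at 12.8% of sites with neither element and at 11.7% of the right-hand windows of the AP-1 sites. The difference from sites with neither element was −0.14 points (−1.75 to 1.62). At sites with DR4 alone the share was 55.4%, which follows in part from the rule. Other arrangements of 2 half-sites with at most 2 mismatches were rare at AP-1 sites. Direct repeats with spacers of 0 to 8 bases, leaving out 4, were present at 1.74% (DR2) to 2.57% (DR8), the everted repeat with 6 bases between (ER6) at 0.838% and the inverted repeat without spacer (IR0) at 1.38%. For each of these the interval of the difference from sites with neither element included 0.

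Motifs of other factors were counted as exact matches on both strands. Of all 31 motifs and arrangements compared, the GC box GGGCGG of SP and KLF factors was the one whose difference excluded 0 after adjusting the interval for the number compared. It was present at 6.82% of AP-1 sites and 10.4% of sites with neither element, with a difference of −3.57 points (adjusted interval −5.46 to −1.23). It was present at 5.05% (4.28 to 5.96) of sites with DR4 alone and in 2.39% of the right-hand windows of the AP-1 sites. Its share at AP-1 sites was thus lower than at sites with neither element, but not lower than at sites with DR4 alone. It was higher than in the sequence nearby. The CTCF word (CCA, AG and GGC with 2 bases between each) was present at 1.02% against 2.03% and CCAAT, bound by NFY, at 17.9% against 20.7%. Their unadjusted intervals, −1.46 to −0.37 and −4.70 to −0.79, excluded 0 and their adjusted ones did not.

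For every other motif the interval of the difference from sites with neither element included or reached 0, also without adjustment. The cAMP response element TGACGTCA, which differs from the AP-1 element by an additional central base and is bound by CREB and ATF proteins, was present at 3 AP-1 sites, 0.180% against 0.343%. The E-box words CAGCTG and CAGATG, read by bHLH factors, were present at 14.7% and 17.2% against 13.6% and 16.6%. MEF2, whose factors act with neuronal activity, had its AT-rich element at 3.59% against 3.99%, and the CArG box of SRF was present at 1.20% against 1.29%. GTGGGCG, for EGR proteins, was present at 2.69% against 3.26%. The words GGAATG (TEAD), TAATTA (homeodomain) and TGTGGTT (RUNX) were present at 11.1%, 5.98% and 3.05% against 11.2%, 5.62% and 3.57%. ACAATGG (SOX), ATGCAAAT (POU), TGTTTAC (FOX) and CCGGAAG (ETS) were present at 2.15%, 1.92%, 0.958% and 1.14% against 2.25%, 1.69%, 1.25% and 1.31%. The EBF word (TCCC and GGGA with 2 bases between) and the RFX word (GTT, CC, GG and AAC with 1, 2 and 1 bases between) were present at 0.479% and 0.120% against 0.624% and 0.446%. TTGCGCAA (CEBP) and the NFI word (TTGGC and GCCAA with 5 bases between) were found at 0 of the 1671 sites, which bounds their share at 0.229%. Both were also rare at sites with neither element, with 0.0754% and 0%. Against the windows of the AP-1 sites, several motifs differed more than against sites with neither element. CAGCTG was found in 9.04% of the windows and GTGGGCG in 0.778%, below their shares at the sites. CCAAT was found in 26.2% of the windows, TGTGGTT in 6.04% and TGTTTAC in 2.09%, above their shares at the sites.

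**Figure D4:**
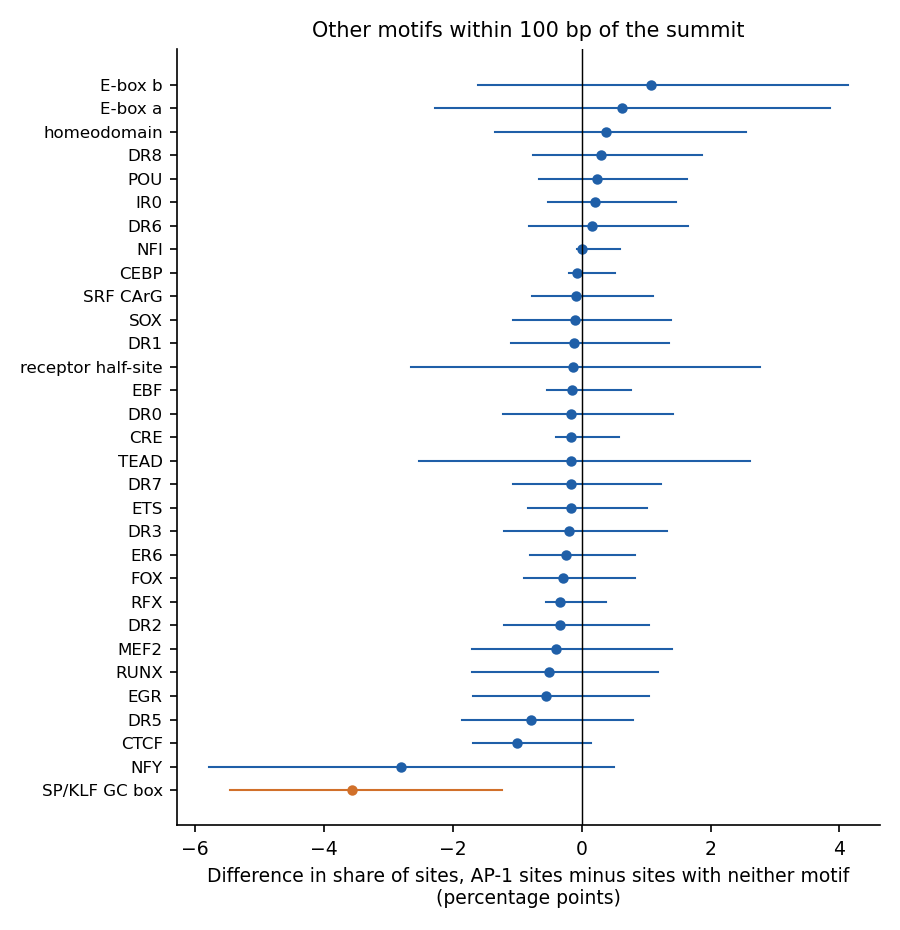
Difference in percentage points (x axis) between the share of AP-1 sites and the share of sites with neither element that hold each motif (y axis), with intervals adjusted for the 31 compared. E-box a and b are CAGATG and CAGCTG; the orange GC box at −3.57 is the one whose interval excludes 0.

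A larger share of the AP-1 sites was intergenic than of sites with neither element or with DR4 alone. Of the 1671 summits, 852 (51.0%) lay in introns of protein-coding genes, 677 (40.5%) in intergenic sequence, 76 (4.55%) in exons, 50 (2.99%) within 5 kb upstream and 16 (0.958%) within 1 kb downstream. The intergenic share was 5.14 points (2.68 to 7.64) above that of sites with neither element and 6.26 points (3.29 to 9.24) above that of sites with DR4 alone. With sites of a score of at least 200 the first difference was 3.59 points and its interval, −0.59 to 7.92, included 0. The exon share was 2.98 points lower than at sites with neither element (difference −2.98, −3.98 to −1.79), and the intron share 5.35 points lower than at sites with DR4 alone (difference −5.35, −8.40 to −2.29). In coding exons there were 18 AP-1 sites, 1.08% against 2.61% of sites with neither element. The median distance to the nearest gene start was 49122 bp (44841 to 53102). It was 43541 bp (42144 to 45061) for sites with neither element and 45364 bp (42211 to 48612) for sites with DR4 alone, with overlapping intervals. A gene start was within 30 kb of 37.3%, against 40.8% of sites with neither element (difference −3.44, −5.86 to −0.96). For sites with DR4 alone it was 39.7%, and the difference of −2.38 (−5.35 to 0.61) included 0. Downstream of the nearest gene start lay 61.8% of AP-1 sites and 63.1% of sites with neither element. A start of a long noncoding RNA gene was within 1 kb of 2.39% and 2.87%.

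**Figure D5:**
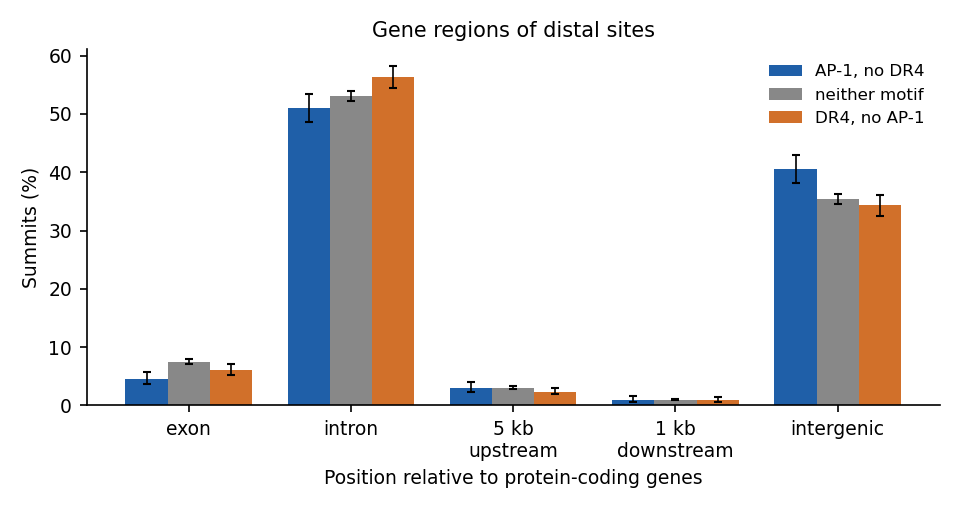
Percentage of distal summits (y axis) in each gene region (x axis) for AP-1 sites, sites with neither element and sites with DR4 alone, with 95% Wilson intervals. Intergenic summits were 40.5% of the AP-1 sites, above both other classes, and exonic summits 4.55%, below both.

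Within 10 kb, the AP-1 sites had fewer TRα1 sites around them than sites with neither element. Another site of any kind was within 10 kb of 36.0% against 40.1% (difference −4.11, −6.51 to −1.64), with 37.0% at sites with DR4 alone, and a promoter site within 10 kb of 5.98% against 8.36% (difference −2.38, −3.51 to −1.06). A site with DR4 was within 10 kb of 6.34% against 7.26%, and the interval of the difference, −2.07 to 0.42, included 0. Another AP-1 site without DR4 was within 10 kb of 5.27% against 3.93%, a difference of 1.34 points (0.31 to 2.55). Within 50 kb the differences included or reached 0. Any other site was found at 74.3% against 75.2% (−3.24 to 1.18), a promoter site at 25.7% against 26.8% (−3.19 to 1.24), and another AP-1 site at 16.2% against 14.4% (0.00 to 3.71).

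The site with the highest fold enrichment, 76.2, was intergenic, 26903 bp upstream of Krt20 (a keratin), where 204 fragments overlapped. The next one was labelled by Ccdc90b but lay 363246 bp from its start, in an intron of Dlg2, which encodes the postsynaptic scaffold PSD-93, and reached 70.2 with 215 fragments. Intronic sites of Bcr and Klhl2 (an adaptor of a ubiquitin ligase) had 65.8 and 65.1. A site 4531 bp upstream of Dgkd, a diacylglycerol kinase, had 63.5. At the site nearest Tet2, an enzyme that oxidises 5-methylcytosine, the element was centred 1 bp from the summit and the fold enrichment was 61.9.

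Another 8 of the 15 highest had a fold enrichment between 51.0 and 59.8. They were intronic sites in Lingo3, Iglon5 (a neuronal adhesion molecule, with 2 copies) and Hacd3, a site in an intron of Ttc28 nearest Pitpnb, intergenic sites nearest Acer2 (a ceramidase), Bcl2l10 and Eipr1, and an exonic site of Cx3cl1, which encodes the chemokine fractalkine. The Cx3cl1 site was 936 bp from a site with DR4. Among the 15 the distance from the summit to the element ranged from 1 bp at Tet2 to 67 bp at Klhl2. The background was between 1.69 and 2.43 fragments. Over all AP-1 sites its lowest value was 1.69 and its upper quartile 1.97.

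Within 30 kb of the 5′ end, 953 protein-coding genes had an AP-1 site, which is 4.34% of all 21938 genes and 8.15% of the 11698 genes with any TRα1 site within that distance. Of these genes 892 had exactly 1, 184 (19.3%) also had a site with DR4, and 238 (25.0%) had no other TRα1 site. Most of the sites, 1047 or 62.7%, were farther than 30 kb from every gene start. Teddm3 had 3 AP-1 sites, which were all its TRα1 sites, with a highest fold enrichment of 29.4. Trib2, a pseudokinase gene, had 3 among 5 sites, the highest at 15.2. Of the genes with 2, Aarsd1, Abcb9 and Actn1 come first in the alphabet, with highest values of 9.51, 6.80 and 15.6.

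Among genes of the AP-1 family itself, 2 of 12 subunit genes had such a site, and 9 of the 12 had any TRα1 site. Fosb, an activity-induced FOS protein of striatal neurons, had it 11601 bp upstream at chr7:19321308-19321864, with 36 fragments and 12.6-fold enrichment. Jdp2, which encodes a repressive partner of JUN, had it 4365 bp upstream at chr12:85594481-85594763, with 18 fragments and 5.96-fold enrichment. The Fosb value was above the upper quartile of all AP-1 sites and the Jdp2 value below the lower one. Within 30 kb Fosb had 7 TRα1 sites, none with DR4, and Jdp2 had 6, 2 of them with DR4. None of 16 related bZIP genes and none of 15 genes of kinases that act on AP-1 had one, although 11 and 10 of them had a TRα1 site.

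Of 29 activity-regulated genes, 5 had an AP-1 site within 30 kb, 17.2% of the list and 18.5% of the 27 with any TRα1 site. The Dusp1 site had 42 fragments and 11.0-fold enrichment. It lay in an intron of this MAP kinase phosphatase gene as annotated, with a span of chr17:26505590-26562128. It was 12537 bp downstream of that annotated 5′ end and 11908 bp from the nearest transcript start. The 5′ end of another gene, Ergic1, was also within 30 kb of it. The Per1 site had 41 fragments and 8.18-fold enrichment. It was 5139 bp downstream of the 5′ end of this clock gene and 153 bp from the start of one of its transcripts, so that it is distal by gene start only. The sites of Bdnf (a neurotrophin, intron, 6687 bp downstream), Scg2 (secretogranin, 10353 bp upstream) and Vgf (a secreted neuropeptide precursor, 25946 bp downstream) had 5.58-, 5.81- and 5.83-fold enrichment. These 3 were below the lower quartile of 6.12.

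Of 28 genes of striatal projection neurons, 3 had an AP-1 site, 10.7% of the list and 13.0% of the 23 with any site, and all of these were strong. Bcl11b, which encodes CTIP2, a transcription factor of these neurons, had it 7273 bp upstream at chr12:108010400-108011201 with 77 fragments and 28.9-fold enrichment. Gng7, the G protein γ subunit that couples striatal dopamine and adenosine receptors, had it in an intron 29173 bp downstream of its 5′ end and 12418 bp from a transcript start, with 110 and 30.2. Arpp21, which encodes a phosphoprotein regulated by cAMP, had it in an intron 21744 bp from its 5′ end and 3067 bp from a transcript start, with 54 and 19.3. All 3 exceeded the upper quartile of 11.9. The AP-1 site was not the only TRα1 site near these genes. Within 30 kb Gng7 had 19 sites, 2 of them with DR4, and Bcl11b had 11, 1 of them with DR4. Arpp21 had 3 sites, none with DR4.

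Marker genes of cell types were looked up in the same way. None of 8 GABAergic, 15 astrocyte and 15 oligodendrocyte genes had an AP-1 site within 30 kb, although all 8, 5 and 5 of them had a TRα1 site. Of 15 microglia genes Tyrobp had one (fold enrichment 8.93) and of 15 endothelial genes Flt1 (10.7), with 5 and 3 genes of these lists near any site. All list counts are descriptions beside the 4.34% and 8.15% of genes in general, and nothing was tested as particular to a list.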

How the data were processed

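TRα1 binding was measured by ChIP-seq in mouse striatum (2 ChIP libraries, 1 input). The authors aligned reads to mm10 (GRCm38), called peaks with MACS2 2.1.1.20160309.0 and removed those with a score below 60. Submitters' processing notes also name Bowtie2 2.3.2.2. Whether libraries were pooled before calling is not given in the sources used here. The deposited list holds pileup signal in fragments, −log10 q, the fold ratio over local background, and the score. A −log10 p column was not used. Depth per library is unknown, and no library can be left out.

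Windows of 100 bp either side of each summit were read from GRCm38.p6 (RefSeq) and gene ends from GENCODE vM21. Motifs were searched on both strands with Python 3.11.15 and numpy 2.4.6, by code tested on simulated sequences. Exon, intron, 5 kb upstream, 1 kb downstream and intergenic classes were assigned in this order. Shares have Wilson intervals, differences Newcombe intervals (adjusted by Bonferroni for the 31 motifs) and medians exact order-statistic intervals, at 95%. No p-value is given, because sites are not replicates.

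The members, gene lists and motifs were chosen with earlier results of these data known. Named were the 15 sites with the highest fold enrichment, the 5 genes with the most sites (ties in alphabetical order), sites with at least 3 copies, and list genes with a site within 30 kb. The list genes for microglia and endothelial cells were named in addition, after their values were seen. Of the 15 sites, 1 is not reported here.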

Additional observations from a re-analysis of the deposited data

How the results depend on the processing

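Over 8 results and 15 settings, 91 values were recomputed, of which 78 stayed within the margin set for each. Transcript starts, summits outside repeats and 1 site per 10 kb were 3 settings chosen after seeing the data. A score of at least 200 left 562 sites and 335 genes, raised the AP-1 difference between summits and windows from 6.85 to 8.75 points and moved the half-site difference to −2.33 points (−4.83 to 0.65). A window of 50 bp gave 919 sites, 534 genes and an AP-1 difference of 3.57 points, a window of 200 bp 8.71 points and the peak midpoint 5.92 points. In the window of 200 bp the excess of single copies within 25 bp over an even spread was 4.16 points (2.63 to 5.80), against 1.11 (−1.04 to 3.38) in the window of 100 bp. Each was measured against an even spread over its own window and on its own set of sites. In the window of 100 bp the excess was −0.24 with a score of at least 200 and −0.80 with DR4 allowed 3 mismatches. Against distal DR4 sites the half-site difference was −42.75 points. With 3 mismatches allowed in DR4, the nearby DR4 difference was −2.30 points (−4.56 to 0.15). Within 10 kb of a gene start, 297 genes had an AP-1 site. The cause of each shift was not tested, other than that fewer sites or narrower windows hold fewer copies. The intergenic share and the 25 bp distance were picked for these comparisons with their values known. No analysis paired by library was possible because the single list holds no value per library, and for the same reason no replicate could be left out.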
